A study of Homo sapiens with 12 samples.

Results

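The genes described here act in homologous recombination, the Fanconi anemia pathway and the response to replication stress. They form a list of 36 named genes, of which 33 had a probe set naming that gene alone, and these 33 were among the 11963 genes measured on the arrays. BRCA2, RBBP8 and FANCA are not analysed here. Expression was measured in 2 human prostate cancer cell lines. The 4 groups were LnCaP cells given 100 µM nicotine tartrate for 24 h, LnCaP cells left untreated, 22RV1 cells given the same nicotine treatment, and 22RV1 cells left untreated, with 3 single-colour Affymetrix arrays in each. LnCaP is an androgen-responsive line from a lymph node metastasis, and 22RV1 comes from a xenograft that regrew after castration. The labels give no vehicle for the untreated cells and do not say whether the replicates were separate cultures, so the spread behind the p-values may be that of technical repeats.

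Homologous recombination repairs a broken chromosome by copying an intact sister. The broken ends are trimmed to single strands, which RPA coats before mediators such as BRCA1, BARD1 and PALB2 help to replace it with the recombinase that searches for the matching sequence. The Fanconi anemia pathway releases forks stopped at crosslinks between strands, and the ATR and CHEK1 kinases hold the cell cycle while forks recover. Many of these genes are transcribed mainly as cells enter and pass through S phase, so in bulk RNA fewer cells in that phase and less RNA per cell cannot be told apart.

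All values below are log2 expression values or differences between them. The medians of the 12 arrays lay between 6.61 and 6.71. The arrays numbered 3 held 48.0% of the squared spread within groups over all genes. All 7 measured luminal prostate markers averaged 8.38 or more in each group. KRT18 averaged 12.57 and 12.58 in nicotine-treated and untreated LnCaP cells, and 12.67 and 12.71 in nicotine-treated and untreated 22RV1 cells. With nicotine, the log2 fold change was negative for 4 of the 7 in LnCaP, and 0 of the 7 passed without the block in either line (TMPRSS2 and FOLH1 had an unadjusted p under 0.05 in LnCaP). The largest in LnCaP were KLK2 at -0.77 in LnCaP, which passed with the block alone (adjusted p = 0.0133), and -0.60 in 22RV1, TMPRSS2 at -0.65 and 0.086, and FOLH1 at 0.50 and 0.21, each with LnCaP before 22RV1. The leukocyte genes PTPRC and CD14, the endothelial genes PECAM1 and CDH5 and the basal genes KRT5 and KRT14 averaged below the lower quartile of genes, 5.23, in each group. CD3E, COL1A1, COL3A1, DCN and VWF were above it in at least 1 group, and 0 of these passed in either line, with or without the block (VWF in both lines and DCN in 22RV1 had an unadjusted p under 0.05). Of these VWF had log2 fold changes of 0.56 in LnCaP and 0.40 in 22RV1, COL3A1 -0.32 and 0.0097, and DCN -0.038 and 0.29. Averaged over both lines, 2 of the 7 luminal markers fell and 1 of the 3 endothelial genes rose with the block. In that fit 3.31% of all genes were called, and 0 of these markers passed without the block. The part of these markers in the results below was not tested.

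In LnCaP cells, 5 of the 33 genes fell with nicotine and 0 rose. The fallen genes were EXO1, a nuclease that trims broken ends, RAD51AP1, a cofactor of strand exchange, FANCI, a central Fanconi anemia protein, CHEK2, a checkpoint kinase, and TIMELESS, which keeps replication forks stable. Their levels were between 1.47 and 1.95 times lower in nicotine-treated cells. They were 15.2% of the 33, where 0.585% of all genes fell and 0.694% were called in either direction (limma, Benjamini-Hochberg adjusted p under 0.05). The list was chosen with earlier results of these data known, so its shares here and below describe the list and are not independent support. At an unadjusted p under 0.05, 19 of the 33 were lower and 1, BARD1, was higher, while 1456 of the 11963 genes passed that p, 870 of them lower. The log2 fold change was negative in 29 of the 33 genes and in 50.4% of all genes. Its median was -0.34 over the 33 genes and -0.0014 over all genes. In 17 of the 33, or 51.5%, all 3 nicotine-treated arrays lay below all 3 untreated arrays, which was so for 10.1% of all genes. In 1, BARD1, all nicotine-treated arrays lay above, which was so for 7.1% of all genes.

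The replicate numbers were taken to pair the arrays, and with the number as a block within each line 12 of the 33 genes fell in LnCaP and 0 rose, or 36.4%. Of all genes, 3.28% fell in that fit and 5.39% were called. The additional genes were BLM, CHEK1, RAD54B, FANCG, XRCC3, RAD51C and FANCC. Without the block, calls were lost when single arrays were left out. The number of genes called was 0 without untreated array 1, untreated array 3, nicotine-treated array 1 or nicotine-treated array 2, 3 without untreated array 2 and 5 without nicotine-treated array 3. The 3 were EXO1, FANCI and TIMELESS, and the 5 were BLM, CHEK1, EXO1, FANCI and RAD51AP1. EXO1 and FANCI thus passed in 2 of the 6 fits each, RAD51AP1 and TIMELESS in 1 each and CHEK2 in 0. Over all genes those fits called between 0 and 108. The median log2 fold change of the 33 genes stayed between -0.38 and -0.29 in these 6 fits.

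**Figure D1:**
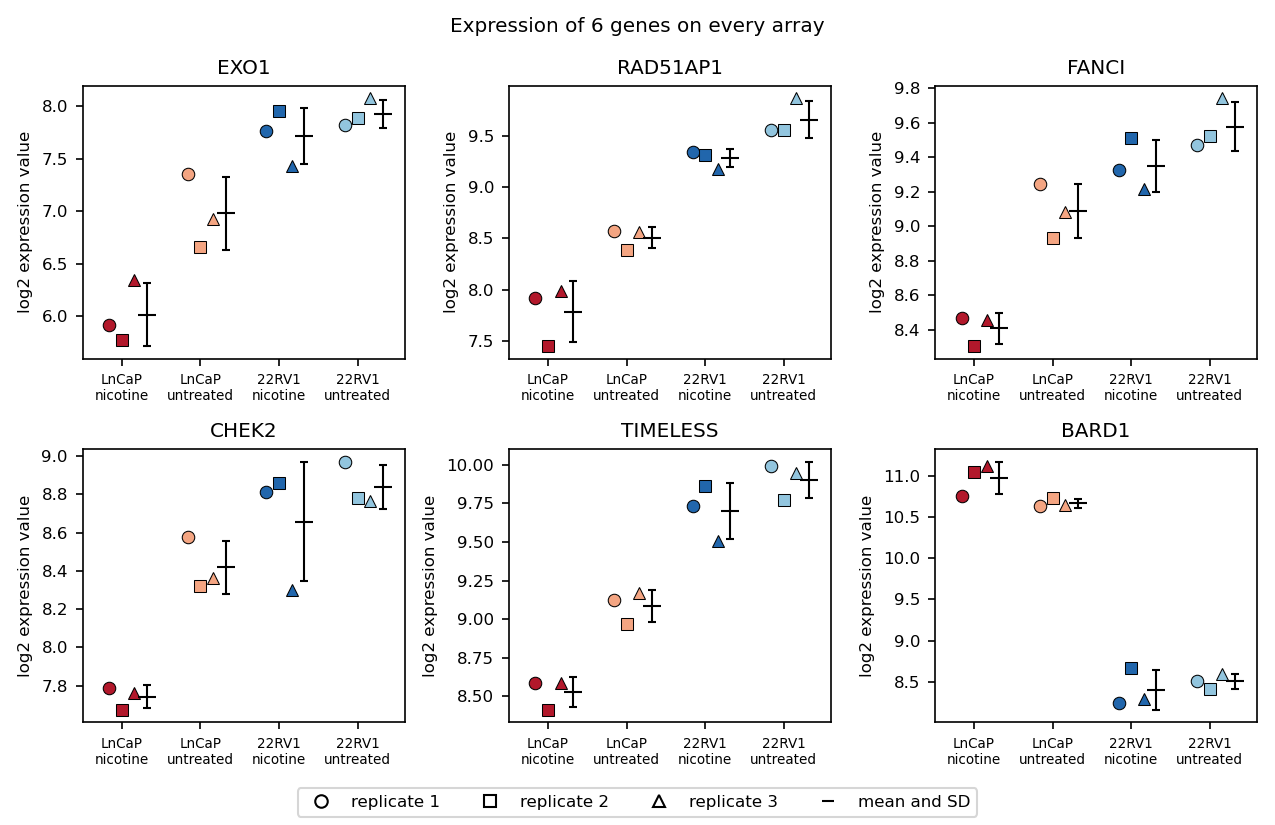
Deposited log2 expression value (vertical axis) of EXO1, RAD51AP1, FANCI, CHEK2, TIMELESS and BARD1 on each array, with symbols for the replicate number and black bars for the mean ± SD of 3 arrays, the LnCaP groups with and without nicotine standing left of the 22RV1 groups with and without nicotine. For EXO1 the 3 nicotine-treated LnCaP arrays sit between 5.78 and 6.35, below the untreated LnCaP arrays at 6.66 to 7.35.

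Promoters of the genes that fell in LnCaP are shown because these genes fell in the same comparison, and EXO1 and FANCI are named only. RefSeq promoter sequences of the build GRCh38.p14 were matched for 26 of the 33 measured genes, and the bases before the transcription start outside the annotated gene are printed 5′ to 3′ on the strand of the gene. Capitals mark matches, on either strand, to the CCAAT box, bound by NF-Y, or to an E2F-type motif, searched as GCGGGAA and as the alternative GCGCCAA. Positions count back from the base before the transcription start of each promoter sequence. The CHEK2 stretch is 236 bases long, because the bases next to that start lie inside the annotated gene and are not printed. Its positions still count from the transcription start, not from the end of the printed stretch.
RAD51AP1, chr12:4538640-4538889, plus strand: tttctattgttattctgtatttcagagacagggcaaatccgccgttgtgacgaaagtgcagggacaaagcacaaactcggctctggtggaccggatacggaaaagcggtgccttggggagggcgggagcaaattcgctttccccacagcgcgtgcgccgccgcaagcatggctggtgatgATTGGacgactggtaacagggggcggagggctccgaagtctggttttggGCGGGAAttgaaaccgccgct
CHEK2, chr22:28741835-28742070, minus strand: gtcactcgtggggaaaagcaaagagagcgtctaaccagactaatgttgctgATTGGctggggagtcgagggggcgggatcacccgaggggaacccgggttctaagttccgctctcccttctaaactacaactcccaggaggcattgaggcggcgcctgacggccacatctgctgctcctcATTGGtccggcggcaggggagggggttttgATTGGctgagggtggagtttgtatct
TIMELESS, chr12:56449427-56449676, minus strand: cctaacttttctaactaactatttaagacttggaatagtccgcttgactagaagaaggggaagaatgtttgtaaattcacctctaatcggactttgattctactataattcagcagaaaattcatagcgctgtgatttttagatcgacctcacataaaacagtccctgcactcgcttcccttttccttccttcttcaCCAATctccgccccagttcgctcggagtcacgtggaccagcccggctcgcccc
The RAD51AP1 stretch held a CCAAT box with its first base at -70 and an E2F-type match at -21. The CHEK2 stretch held 3 CCAAT boxes, at -199, -70 and -40, and the TIMELESS stretch held 1, at -53. Within 250 bases before the start, the CCAAT box was found in 14 of the 26 promoters (53.8%) and in 33% of 27305 promoters, and either E2F-type motif in 8 of 26 (30.8%) and in 7.9% of all. The E2F-type share depends on the window, and was 13 of 26 (50%) and 9.3% of all when the 50 bases after the start were included. The cell cycle homology motif, searched as TTTGAA and as the variant TTCGAA, was found in 2 of 26 (7.7%) and in 14.6% of all. Within 250 bases, the CCAAT box was in 6 of 10 promoters of genes that fell in LnCaP with the replicate block and in 8 of 16 others of the list. Either E2F-type motif was in 4 of 10 and 4 of 16, or 5 of 10 and 8 of 16 in the longer window. A relation of the motifs to the fall was not tested. These matches describe the letters, and binding was not measured.

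Strand exchange and its mediators held 9 measured genes, of which 8 had a negative log2 fold change in LnCaP, with a median of -0.42. RAD51AP1 fell, and RAD54B, XRCC3 and RAD51C passed with the block alone. RAD51AP1, whose promoter stretch held both motifs, encodes a protein that binds DNA and stimulates the search for a matching strand. It had 7.92, 7.45 and 7.99 in nicotine-treated LnCaP cells, against 8.57, 8.39 and 8.56 in untreated LnCaP cells. All nicotine-treated arrays were below all untreated ones, and the log2 fold change was -0.72 ± 0.14 (SE, adjusted p = 0.0407, 3 arrays in each group). In 22RV1 cells RAD51AP1 had 9.35, 9.32 and 9.18 with nicotine, against 9.56, 9.56 and 9.87 without. These groups did not overlap either, but the log2 fold change of -0.38 ± 0.14 did not pass (adjusted p = 0.879). RAD54L and RAD54B are motor proteins that remodel chromatin and the joined strands during the search. RAD54L had 7.16, 7.28 and 7.66 with nicotine in LnCaP, against 8.42, 7.78 and 8.05 untreated. The groups did not overlap, and the log2 fold change of -0.72 ± 0.19 missed the threshold (adjusted p = 0.107, and 0.0512 with the block). In 22RV1 cells RAD54L had 8.14, 8.36 and 7.73 with nicotine, against 8.32, 8.31 and 8.40 without. RAD54B had 7.22, 6.71 and 7.30 with nicotine in LnCaP, against 7.85, 7.53 and 7.81 untreated, again without overlap. Its log2 fold change was -0.65 ± 0.17 (adjusted p = 0.114, and 0.0187 with the block). In 22RV1 cells RAD54B had 8.59, 8.87 and 8.45 with nicotine, against 8.43, 8.75 and 8.91 without, and the groups overlapped.

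BRCA1, the tumor suppressor that promotes end trimming and loading of the recombinase, had 7.01, 6.66 and 7.45 in nicotine-treated LnCaP cells, against 8.12, 7.32 and 7.71 in untreated ones. The highest nicotine-treated array was above the lowest untreated one. The log2 fold change of -0.68 ± 0.23 did not pass (adjusted p = 0.227), while the gene's dimmer second probe set gave -0.84 ± 0.15 and passed in a fit of all 22277 probe sets (adjusted p = 0.0438). In 22RV1 cells BRCA1 had 8.38, 8.67 and 7.999 with nicotine, against 8.44, 8.49 and 8.76 without. BARD1 is the partner that BRCA1 needs to be stable. BARD1 had 10.75, 11.05 and 11.12 with nicotine in LnCaP, against 10.63, 10.73 and 10.64 untreated. All nicotine-treated arrays were above the untreated ones, by a log2 fold change of 0.31 ± 0.12 that did not pass (adjusted p = 0.335). In 22RV1 cells BARD1 had 8.24, 8.68 and 8.29 with nicotine, against 8.51, 8.41 and 8.59 without, and the groups overlapped. XRCC3 and RAD51C form a complex that steadies the recombinase filament. XRCC3 had 6.39, 6.56 and 6.65 with nicotine in LnCaP, against 6.94, 6.83 and 7.09 untreated, without overlap. Its log2 fold change was -0.42 ± 0.10 (adjusted p = 0.0894, and 0.032 with the block). In 22RV1 cells XRCC3 had 6.87, 7.03 and 6.70 with nicotine, against 6.91, 6.87 and 6.92 without. RAD51C had 9.02, 8.89 and 9.29 with nicotine in LnCaP, against 9.39, 9.19 and 9.74 untreated. These groups overlapped, yet each nicotine-treated array was below the untreated array of the same number, and the log2 fold change of -0.37 ± 0.18 passed with the block alone (adjusted p = 0.44, and 0.0256 with the block). In 22RV1 cells RAD51C had 8.56, 8.64 and 8.93 with nicotine, against 8.72, 8.70 and 9.26 without. The remaining pair, PALB2, which bridges BRCA1 to the recombinase loader, and XRCC2, another filament helper, had log2 fold changes of -0.26 and -0.29 in LnCaP, both without overlap and without passing.

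**Figure D2:**
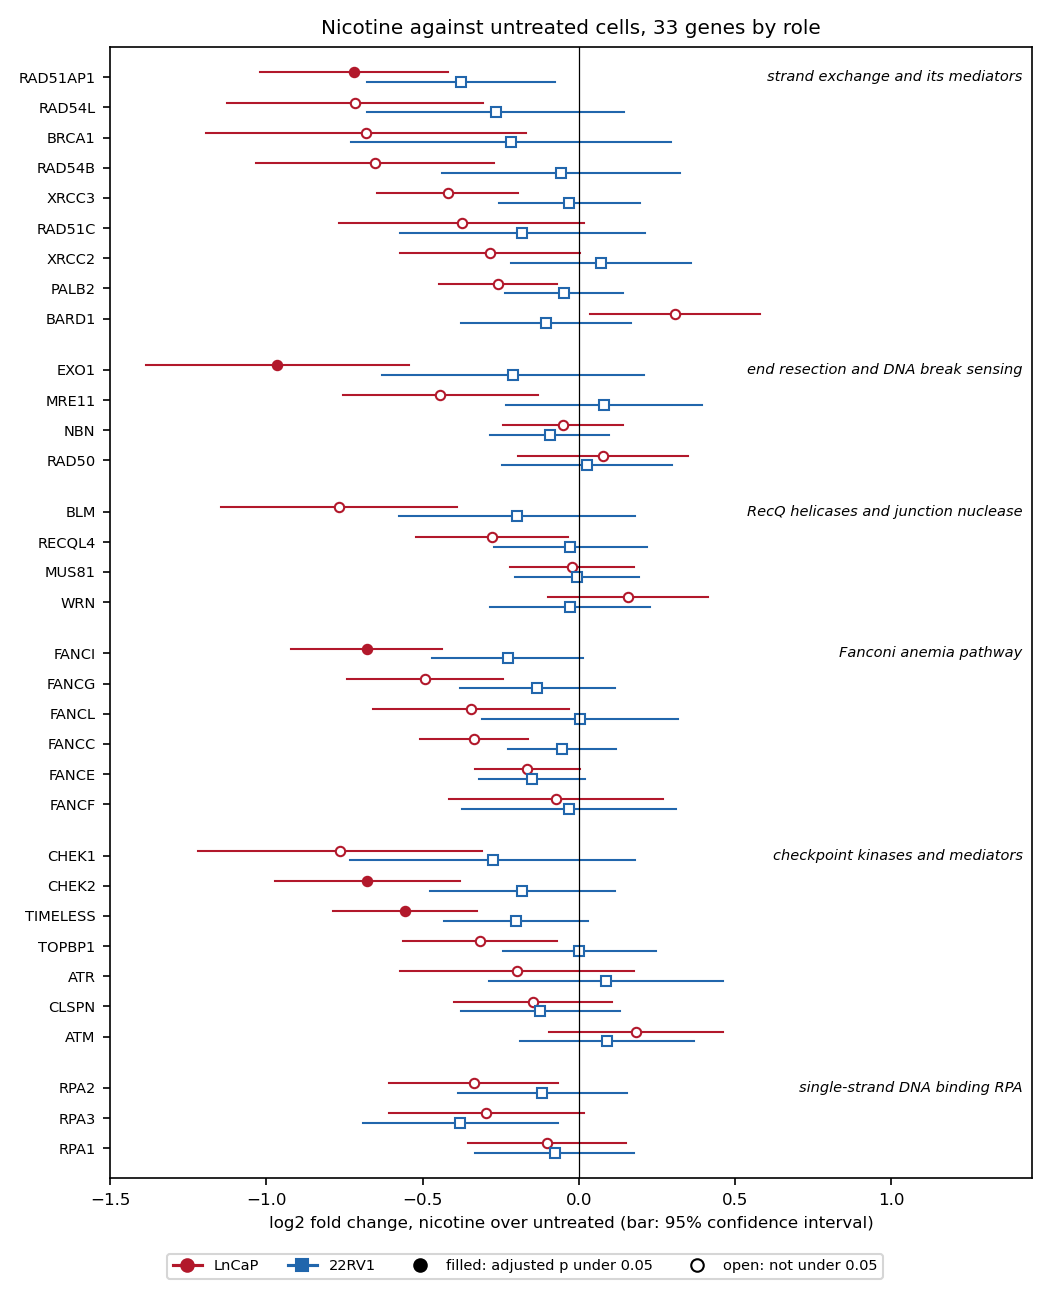
Log2 fold change of nicotine over untreated cells (horizontal axis, points, with 95% confidence intervals from limma as bars) for the 33 genes, grouped by role, in LnCaP (circles) and 22RV1 (squares). The filled points mark adjusted p under 0.05: EXO1, RAD51AP1, FANCI, CHEK2 and TIMELESS in LnCaP, and 0 genes in 22RV1.

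Of the 4 measured genes of end resection and break sensing, EXO1 fell in LnCaP. It had 5.92, 5.78 and 6.35 in nicotine-treated LnCaP cells, against 7.35, 6.66 and 6.92 in untreated LnCaP cells. The groups did not overlap, and the log2 fold change of -0.96 ± 0.19 was the most negative of the 33 genes (adjusted p = 0.0469). In 22RV1 cells EXO1 had 7.77, 7.95 and 7.43 with nicotine, against 7.82, 7.89 and 8.07 without, and array 3 alone of the nicotine-treated arrays was well below the rest. MRE11, RAD50 and NBN form the complex that first binds a broken end. MRE11, its nuclease, had 7.16, 6.74 and 7.24 with nicotine in LnCaP, against 7.60, 7.59 and 7.29 untreated. All nicotine-treated arrays were below the untreated ones, and the log2 fold change of -0.44 ± 0.14 did not pass (adjusted p = 0.192). A second MRE11 probe set, with a mean of 3.64 and so among the dim ones, had a log2 fold change of 0.10. In 22RV1 cells MRE11 had 5.62, 5.75 and 5.37 with nicotine, against 5.62, 5.45 and 5.44 without. RAD50, the subunit that tethers ends, had 8.48, 8.54 and 8.40 with nicotine in LnCaP, against 8.55, 8.48 and 8.16 untreated. The groups overlapped, with a log2 fold change of 0.078 ± 0.12. In 22RV1 cells RAD50 had 9.20, 9.23 and 8.91 with nicotine, against 9.20, 9.16 and 8.91 without. NBN, the subunit that recruits ATM, had log2 fold changes of -0.051 in LnCaP and -0.094 in 22RV1, neither passing, and in 22RV1 its 3 nicotine-treated arrays lay below the untreated ones.

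Among the 3 RecQ helicases and the junction nuclease MUS81, no gene passed in LnCaP without the block. BLM, the helicase that dissolves recombination intermediates, had 5.71, 5.69 and 6.17 in nicotine-treated LnCaP cells, against 6.81, 6.40 and 6.66 in untreated ones. The groups did not overlap, and the log2 fold change of -0.77 ± 0.17 passed with the block alone (adjusted p = 0.0726, and 0.03 with the block). In 22RV1 cells BLM had 7.51, 7.69 and 7.27 with nicotine, against 7.47, 7.60 and 7.98 without. RECQL4, a helicase that also takes part in replication initiation, had 6.57, 6.91 and 6.85 with nicotine in LnCaP, against 7.04, 7.03 and 7.09 untreated. These groups did not overlap, and the log2 fold change of -0.28 ± 0.11 did not pass (adjusted p = 0.327). In 22RV1 cells RECQL4 had 7.81, 7.86 and 7.92 with nicotine, against 7.85, 7.71 and 8.11 without. WRN, the helicase missing in Werner syndrome, and MUS81 had log2 fold changes of 0.16 and -0.022 in LnCaP, with overlapping groups.

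All 6 measured Fanconi anemia genes had negative log2 fold changes in LnCaP, with a median of -0.34. FANCI fell, and FANCG and FANCC passed with the block alone. FANCI is ubiquitinated with its partner at stalled forks. It had 8.47, 8.30 and 8.45 in nicotine-treated LnCaP cells, against 9.25, 8.93 and 9.08 in untreated LnCaP cells. The groups did not overlap, with a log2 fold change of -0.68 ± 0.11 (adjusted p = 0.0233), the smallest p of the 33 genes, and a second FANCI probe set gave -0.71. In 22RV1 cells FANCI had 9.33, 9.51 and 9.21 with nicotine, against 9.47, 9.52 and 9.74 without, and the groups overlapped. FANCG and FANCC belong to the core complex that carries out the ubiquitination. FANCG had 8.45, 8.28 and 8.25 with nicotine in LnCaP, against 8.999, 8.71 and 8.74 untreated, without overlap. Its log2 fold change was -0.49 ± 0.11 (adjusted p = 0.0781, and 0.0137 with the block). In 22RV1 cells FANCG had 9.53, 9.66 and 9.24 with nicotine, against 9.63, 9.62 and 9.58 without. FANCC had 6.99, 7.03 and 7.10 with nicotine in LnCaP, against 7.50, 7.28 and 7.35 untreated, also without overlap. Its log2 fold change was -0.34 ± 0.079 (adjusted p = 0.0805, and 0.0416 with the block). In 22RV1 cells FANCC had 7.69, 7.64 and 7.70 with nicotine, against 7.81, 7.66 and 7.72 without. FANCL is the ubiquitin ligase of the core complex. FANCL had 7.07, 6.51 and 6.59 with nicotine in LnCaP, against 7.18, 7.11 and 6.92 untreated, and the groups overlapped. In 22RV1 cells FANCL had 9.25, 9.24 and 8.93 with nicotine, against 9.21, 9.18 and 9.02 without. FANCE, an adaptor of the core complex, had 7.09, 6.97 and 7.05 with nicotine in LnCaP, against 7.21, 7.16 and 7.23 untreated. Its groups did not overlap, but the log2 fold change of -0.16 ± 0.077 was small and did not pass (adjusted p = 0.427). In 22RV1 cells FANCE had 6.83, 6.92 and 6.71 with nicotine, against 7.05, 6.90 and 6.97 without. FANCF, another adaptor, had a log2 fold change of -0.073 in LnCaP.

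Of the 7 checkpoint kinases and mediators, CHEK2 and TIMELESS fell in LnCaP and CHEK1 passed with the block alone. CHEK2, whose promoter stretch held 3 CCAAT boxes, encodes a kinase that ATM activates after breaks. It had 7.79, 7.67 and 7.76 in nicotine-treated LnCaP cells, against 8.58, 8.32 and 8.36 in untreated LnCaP cells. The groups did not overlap, and the log2 fold change was -0.68 ± 0.14 (adjusted p = 0.0477). In 22RV1 cells CHEK2 had 8.81, 8.86 and 8.30 with nicotine, against 8.97, 8.78 and 8.77 without, and array 3 was the lowest. TIMELESS had 8.58, 8.41 and 8.59 with nicotine in LnCaP, against 9.12, 8.97 and 9.17 untreated. The groups did not overlap, and the log2 fold change was -0.56 ± 0.11 (adjusted p = 0.0394). A second TIMELESS probe set, dimmer with a mean of 5.07, gave -0.25 and did not pass in a limma fit of all probe sets (adjusted p = 0.387). In 22RV1 cells TIMELESS had 9.73, 9.86 and 9.51 with nicotine, against 9.99, 9.77 and 9.95 without. CHEK1, the kinase that ATR activates at stalled forks, had 6.57, 6.31 and 7.14 with nicotine in LnCaP, against 7.70, 7.12 and 7.50 untreated. The highest nicotine-treated array was above the lowest untreated one by a small margin, and the log2 fold change was -0.76 ± 0.21 (adjusted p = 0.121, and 0.033 with the block). In 22RV1 cells CHEK1 had 8.04, 7.94 and 7.55 with nicotine, against 8.02, 8.06 and 8.29 without. TOPBP1, the activator of ATR, had 8.30, 8.05 and 8.29 with nicotine in LnCaP, against 8.76, 8.38 and 8.45 untreated. Those groups did not overlap, and the log2 fold change of -0.32 ± 0.11 did not pass (adjusted p = 0.245). In 22RV1 cells TOPBP1 had 9.13, 9.24 and 8.97 with nicotine, against 9.15, 9.09 and 9.09 without. ATR itself had 8.50, 8.24 and 8.21 with nicotine in LnCaP, against 8.62, 8.52 and 8.40 untreated, and the groups overlapped. In 22RV1 cells ATR had 8.17, 8.44 and 7.72 with nicotine, against 8.19, 8.13 and 7.75 without, and array 3 was the lowest in both groups. ATM, the kinase that responds to breaks, had a log2 fold change of 0.18 in LnCaP. CLSPN, which links ATR to CHEK1, had -0.15 at a mean level of 4.04, below the lower quartile of genes, so its difference has little signal behind it.

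The RPA subunits coat single strands at forks and resected ends. RPA3 had 10.74, 10.57 and 10.84 in nicotine-treated LnCaP cells, against 10.84, 10.997 and 11.20 in untreated ones, and the groups overlapped at their edge. In 22RV1 cells RPA3 had 11.02, 11.05 and 11.19 with nicotine, against 11.31, 11.28 and 11.81 without. The 22RV1 groups did not overlap, with a log2 fold change of -0.38 ± 0.14 that did not pass (adjusted p = 0.89). RPA2 had 9.12, 8.94 and 9.33 with nicotine in LnCaP, against 9.56, 9.25 and 9.58 untreated, and the groups overlapped. In 22RV1 cells RPA2 had 9.93, 9.82 and 9.64 with nicotine, against 9.79, 9.92 and 10.03 without. The log2 fold changes in LnCaP were -0.30 for RPA3, -0.34 for RPA2 and -0.10 for the large subunit RPA1, and 0 of the 3 passed with or without the block.

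In 22RV1 cells 0 of the 33 genes passed, with or without the block, and 0% of all genes did (limma). At an unadjusted p under 0.05, 2 of the 33 genes, RAD51AP1 and RPA3, and 633 of the 11963 genes stood out, and 0 of the 33 passed in any alternative fit. The log2 fold change was negative in 26 of the 33 genes and in 52.3% of all genes, with medians of -0.09 and -0.0071. Nicotine-treated arrays lay wholly below untreated ones for RAD51AP1, NBN and RPA3, or 9.09% of the 33 genes, and for 6.47% of all genes. The 3 numbered pairs of 22RV1 arrays differed among themselves. The median difference over the 33 genes was -0.065 in pair 1, 0.041 in pair 2 and -0.26 in pair 3, and 24, 13 and 29 genes were negative in pairs 1, 2 and 3. Without the arrays numbered 3, the 22RV1 median was -0.014 and 19 of 33 genes were negative. The LnCaP pairs 1, 2 and 3 had medians of -0.44, -0.30 and -0.27, with 29, 27 and 29 negative genes. Without the arrays numbered 3, the LnCaP median was -0.35, 29 genes were negative, and 6, or 18.2%, fell, namely BLM, CHEK1, CHEK2, EXO1, FANCI and RAD51AP1. In that fit 51.5% of all genes were negative and 1.2% were called in either direction.

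**Figure D3:**
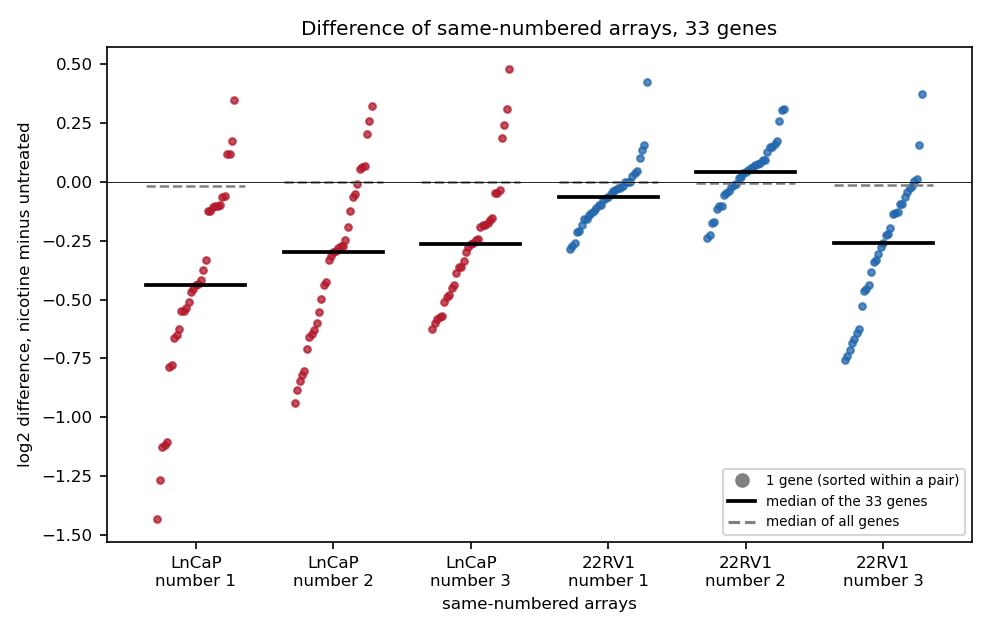
Difference in log2 expression, nicotine minus untreated, within each pair of arrays of the same number (vertical axis), 1 point per gene for the 33 genes, with LnCaP pairs left of 22RV1 pairs, solid lines for the median of these genes and dashed lines for the median of all genes. The medians of the LnCaP pairs lie between -0.44 and -0.27, and those of the 22RV1 pairs between -0.26 and 0.041.

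Averaged over both lines, 2 of the 33 genes fell, FANCI by 0.45 ± 0.078 (SE, adjusted p = 0.0356) and RAD51AP1 by 0.55 ± 0.098 (adjusted p = 0.0411) on the log2 scale. Over all genes 0.293% fell and 0.376% were called in this comparison. With the block 9 of the 33 fell, the additional ones being CHEK1, CHEK2, EXO1, FANCG, RAD51C, RPA3 and TIMELESS, where 2.03% of all genes fell and 3.31% were called. The largest averages were those of EXO1 at -0.59, RAD51AP1 at -0.55, CHEK1 at -0.52 and RAD54L at -0.49. In 24 of the 33 genes, or 72.7%, the log2 fold change was negative in both lines, which was so for 29.5% of all genes. That count leans on the 22RV1 arrays numbered 3, since 26 genes were negative in 22RV1 with them and 19 without them. Leaving out any 1 of the 12 arrays left 0 or 1 gene called, with FANCI alone remaining without untreated LnCaP array 2 and RAD51AP1 alone without nicotine-treated LnCaP array 3. Over all 11963 genes those fits called between 0 and 36. Without the 4 arrays numbered 3, 0 of the 33 genes and 7 of all genes were called.

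The test of the difference between lines, the LnCaP effect minus the 22RV1 effect, called 0 of the 33 genes without the block and 0 with it, where 0% and 0.159% of all genes were called (limma). At an unadjusted p under 0.05 there were 11 of the 33 genes, 10 of them with a more negative log2 fold change in LnCaP, and 749 of all genes. No single gene of the list thus passed as responding more in LnCaP than in 22RV1. The 4 smallest p-values belonged to FANCI, with a difference of -0.45 ± 0.16 (95% interval -0.79 to -0.11, adjusted p = 0.71), EXO1, with -0.75 ± 0.27 (-1.35 to -0.16, adjusted p = 0.726), XRCC3, with -0.39 ± 0.15 (-0.71 to -0.069, adjusted p = 0.742), and CHEK2, with -0.50 ± 0.19 (-0.92 to -0.078, adjusted p = 0.742). BARD1 had the most positive difference, 0.41 ± 0.18 (adjusted p = 0.77). The median difference was -0.28 over the 33 genes.

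The untreated lines already differed in these genes. Of the 33, 17 were lower and 5 higher in untreated LnCaP than in untreated 22RV1, or 66.7% called, where 22.4% of all genes were lower, 25.4% higher and 47.8% called. This comparison uses the same untreated arrays as the nicotine comparisons. The values of each array are those given above. BARD1 was 4.46 times higher in LnCaP, with a log2 fold change of 2.16 ± 0.12 (adjusted p = 4.15e-08), and each LnCaP array was above each 22RV1 array, treated ones included. MRE11 was 3.98 times higher, at 1.99 ± 0.14 (adjusted p = 2.74e-07), although its dim second probe set had a log2 fold change of -0.0083. FANCL was 4.19 times lower in LnCaP, at -2.07 ± 0.14 (adjusted p = 2.08e-07), again with no overlap between the lines. The other higher genes were RAD51C at 0.55, ATR at 0.49 and FANCE at 0.23.

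Of the genes lower in untreated LnCaP, RAD51AP1 at -1.15, BLM at -1.06, RAD54B at -0.96 and EXO1 at -0.95 followed FANCL. BRCA1 was at -0.84, RECQL4 at -0.84, TIMELESS at -0.82, FANCG at -0.79 and RAD50 at -0.69. The second RAD50 probe set gave -0.81. CHEK1, TOPBP1, FANCI, RPA3, RPA2, CHEK2 and FANCC were lower by between 0.36 and 0.68 on the log2 scale. MRE11 and RAD50, subunits of the same complex, thus differed between the untreated lines in opposite directions, and so did BARD1 and BRCA1. NBN, the remaining subunit, did not pass with its brightest probe set, at a log2 fold change of 0.056 (95% interval -0.14 to 0.25). The other NBN probe sets gave 0.0115, 0.38 and 0.36. Those at 0.38 and 0.36 passed in a limma fit of all probe sets (adjusted p = 0.0214 and 0.0137), so the NBN call depends on the probe set. ATM did not pass at -0.32 (adjusted p = 0.0595), and its other probe sets gave 0.62 and 0.78, so the direction depends on the probe set. Leaving out single untreated arrays moved the count of genes called to between 19 and 21. RAD51C, ATR, RPA3 and CHEK2 passed in 3 of these 6 fits each, FANCE in 2 and CHEK1 in 4, and the other 16 called genes in all 6. With the replicate number shared by both lines as a block, chosen after seeing the data, 25 were called, against 52.6% of all genes.

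**Figure D4:**
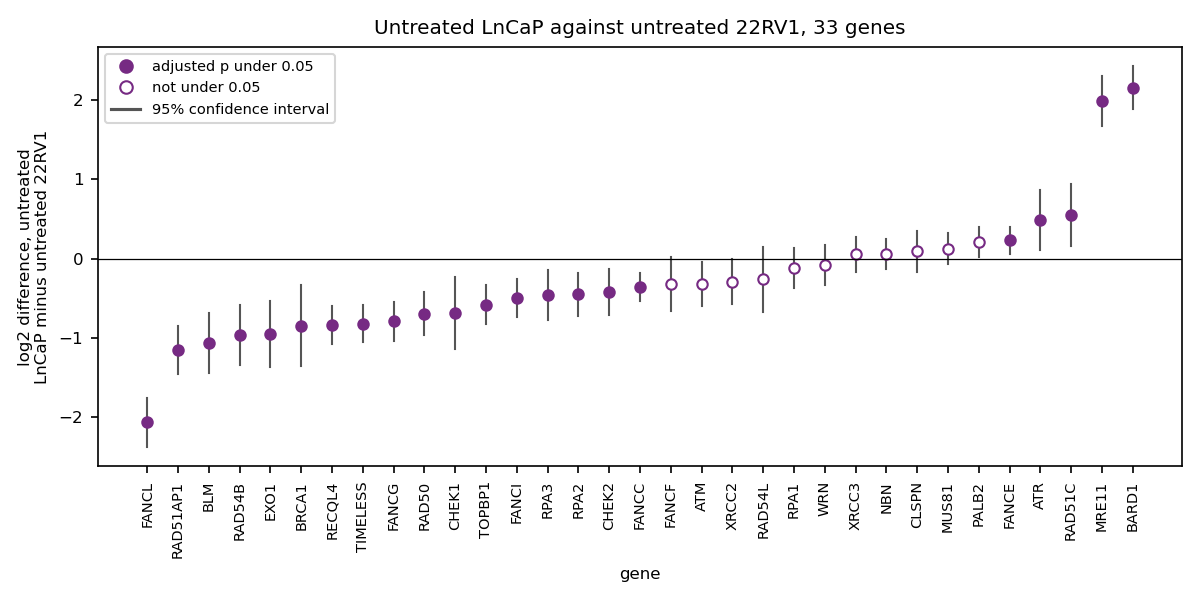
Log2 difference of untreated LnCaP minus untreated 22RV1 (vertical axis, points, with 95% confidence intervals from limma as bars) for the 33 genes, sorted along the horizontal axis. BARD1 at 2.16 and MRE11 at 1.99 lie far above the rest, FANCL at -2.07 far below, and 22 genes have filled points, for an adjusted p under 0.05.

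Other genes of recombination and checkpoint signalling, a list of 58 of which 36 were measured, had a median log2 fold change of -0.14 with nicotine in LnCaP, and 26 of the 36 were negative. MDC1, a mediator that gathers repair factors at breaks, fell by 0.58 ± 0.11 (SE, adjusted p = 0.0407). It was the 1 gene called, or 2.78%, where 0.585% of all genes fell and 0.694% were called. With the block 8 fell, or 22.2%, where 3.28% of all genes fell and 5.39% were called. The most negative were HELLS, a chromatin remodeler, at -0.85 ± 0.17 (adjusted p = 0.0508), DNA2, a resection nuclease, at -0.69, POLQ, the polymerase of an alternative end joining route, at -0.62, and BRIP1, a helicase that binds BRCA1, at -0.58. HELLS, DNA2 and POLQ passed with the block alone and BRIP1 did not pass. In 22RV1 0 of the 36 passed (1 had an unadjusted p under 0.05), and the most negative were TIPIN, the partner of TIMELESS, at -0.34, RECQL at -0.26, RMI1 at -0.25 and PARPBP at -0.25.

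Nonhomologous end joining is the competing repair route, which religates ends without a template. Of its 12 listed genes 8 were measured, and 0 passed in LnCaP, in 22RV1 or with the block (0 at an unadjusted p under 0.05 in each line). The median log2 fold change was -0.043 in LnCaP and 0.045 in 22RV1. The largest in LnCaP were PRKDC, the DNA-dependent protein kinase, at -0.17, LIG4, the ligase, at 0.14, and XRCC6 and XRCC5, the ring that binds ends, at -0.12 and -0.091. In 22RV1 LIG4 was at 0.30, XRCC4, its cofactor, at -0.19, XRCC6 at -0.13 and XRCC5 at -0.12.

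Markers of proliferation were read beside the recombination genes. All 12 measured markers had negative log2 fold changes with nicotine in LnCaP, with a median of -0.64. Of the 12, 4 fell, or 33.3%, where 0.585% of all genes and 15.2% of the 33 genes fell. With the block 8 fell, or 66.7%, where 3.28% of all genes and 36.4% of the 33 genes fell. The 4 were MYBL2, CCNA2, FOXM1 and MKI67, of which the last 3 are named after their values were seen. CCNE2, a cyclin of S phase entry, was at -0.83, TK1, thymidine kinase, at -0.73, MYBL2, a transcription factor of the cell cycle, at -0.71 (adjusted p = 0.0277) and MCM2, a subunit of the replicative helicase, at -0.69. Of these MYBL2 fell, TK1 and MCM2 passed with the block alone, and CCNE2 did not pass. In 22RV1 the median of the 12 was -0.17, 11 were negative and 0 passed (2 had an unadjusted p under 0.05), with CCNB1 at -0.48, CCNE2 at -0.46, CCNA2 at -0.38 and TK1 at -0.32. The part of proliferation in the results of the recombination genes was not tested.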

How the data were processed

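The authors deposited log2 expression values for 22277 probe sets on 12 single-colour Affymetrix arrays. TRIzol-isolated RNA was made into biotinylated cRNA, per the labels' protocols. The normalization is not given in the sources used here, and the values were used as deposited, with no filter. GEO's platform annotation supplied gene symbols (19070 probe sets with 1 symbol, 1043 with several, 2164 unlisted), and the brightest probe set with 1 symbol stood for each of 11963 genes. A model of the 4 group means was fitted over the 12 arrays (limma 3.58.1, lmFit and eBayes, under R 4.3.3), two-sided, with Benjamini-Hochberg adjustment over all genes, and genes were called at adjusted p under 0.05. The fit was run on simulated data with noise drawn independently for each array. That run does not cover arrays that deviate together, as same-numbered arrays did here. Precision is limited by the number of arrays, and LnCaP log2 fold changes had a median SE of 0.11.

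Same-numbered arrays of a line deviated together from their group means (r between 0.225 and 0.64 over genes), so the replicate number, from the labels, was taken to pair them. Arrays 1 and 2 were weakly told apart, since arrays of these different numbers reached r = 0.27, above the lowest same-numbered value, while array 3 against 1 or 2 gave r between -0.53 and -0.22. Values on every array are given for genes called in any comparison, called with the replicate block for nicotine, among the 4 largest changes for nicotine or between the untreated lines, or among the 4 smallest p-values for the difference between lines. Other pathway genes are named if called or among the 4 largest changes, and context lists by their 4 largest. The members and lists were chosen with earlier results of these data known. Alternatives were array centring, a filter on dim genes, array weights, a variance trend, the mean of or all probe sets, the contrast's arrays alone, the block, and leaving out single arrays or those numbered 3. Bases were read from RefSeq promoter sequences.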

Additional observations from a re-analysis of the deposited data

How the results depend on the processing

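For nicotine in LnCaP, the count of genes called was 5, and it became 12 with the replicate block within the line. Over all 11963 genes those fits called 83 and 645. The count was 4, without TIMELESS, with the mean of the probe sets of a gene (99 of 11963 genes called). It was 3 with all probe sets fitted (105 of 22277 probe sets called). The count was 0 with the contrast's 6 arrays alone, where 1 of 11963 genes was called. It was between 0 and 5 without single arrays, where between 0 and 108 of all genes were called. Averaged over both lines the count of 2 became 9 with the replicate block, 1 with all probe sets fitted, 0 without the arrays numbered 3, and 0 or 1 without single arrays. In that order, those fits called 396 of 11963 genes, 47 of 22277 probe sets, 7 genes, and between 0 and 36 genes. In 22RV1 and for the difference between lines it was 0 in all 15 and 20 alternatives, which called at most 1 and 19 of all genes. Between the untreated lines it was 22, and it ranged from 19 to 26 over 15 alternatives, among them a block on the replicate number shared by both lines, with 25, which was chosen after seeing the data. Alternatives on all 11963 genes called between 5114 and 6450 of them. The filter on dim genes called 5279 of 8972, and the fit of all probe sets 9729 of 22277. The median log2 fold change of the 33 genes ranged from -0.38 to -0.29 in LnCaP and from -0.13 to -0.014 in 22RV1, and no result changed its call to the opposite direction. The calls in LnCaP rest on a spread shared with the 22RV1 arrays, and CLSPN and the second MRE11 probe set lie near the lower end of the signal.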
